A study of Mus musculus with 6 samples.

Results

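The S phase melanoma cells outside G2/M were cells high in transcripts of the DNA replication machinery and outside the top of their tumor in mitotic ones. They made up 56 of the 507 retained cells and of the 602 cells deposited. A cell was retained with more than 1000 genes at TPM (transcript abundance brought to one common sum per cell) above 0 and less than 10% of its TPM from mitochondrial genes. Each retained cell was given an S score, the mean of log2(TPM + 1) over 10 replication genes (Mcm2, Mcm4, Mcm5, Mcm6, Pcna, Tyms, Rrm1, Rrm2, Gins2 and Uhrf1). Each was also given an M score, the same mean over 10 mitotic genes (Mki67, Top2a, Cdk1, Ccnb1, Ccnb2, Birc5, Ube2c, Cdc20, Tpx2 and Aurka). The S phase cells were those in the top 25% of their own tumor by S score and not in its top 25% by M score. Cells in the top 25% by M score are called G2/M cells here (129 cells), and cells in the top 25% by neither score are called neither (322 cells). The cells were chosen on measured expression, so the 20 score genes are described and not tested.

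The cells came from tumors of 6 C57BL/6 mice in 3 conditions, each with 2 tumors. B16 and B16PD1 tumors grew from the B16 mouse melanoma line, and R499 tumors from a resistant line derived from 1 B16 tumor that had relapsed after radiation and an antibody against CTLA4. In all 3 conditions, 50000 tumor cells were injected under the skin on day 0 and tumors were taken on day 15. B16PD1 mice received 200 µg of an antibody against PD1, the inhibitory receptor of T cells, on days 5, 8 and 11, and B16 and R499 mice were left untreated. Mice carried cells on both flanks, and the labels do not say whether a tumor number covers one flank or both. Cells without CD45, the surface protein of blood cells, were sorted and read by full-length Smart-seq on a nanowell chip. The tumor was taken as the replicate throughout. Depth in reads is unknown, since TPM holds no read counts, and the number of genes detected (TPM above 0) stood in for it. Its median was 3269 in the S phase cells, 3346 in the neither cells and 4152 in the G2/M cells.

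Before a cell divides it copies its DNA once, in S phase. The origin recognition complex, Cdc6 and Cdt1 load the Mcm2 to Mcm7 helicase onto DNA, Cdc45 and the GINS complex activate it, polymerases held by the Pcna clamp copy both strands, and chromatin assembly factors put histones on the new DNA. Transcription factors of the E2F family switch on most of these genes as a cell passes from G1 into S phase, and a later set of genes, for the spindle, the kinetochore and the anaphase machinery, peaks in G2 and mitosis. In melanoma, as in other tumors, cells in these phases sit beside cells that are not cycling.

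Members were found in every tumor. B16007 and B16008 held 11 S phase cells each, B16PD1000 held 10, B16PD1002 held 6, and R499015 and R499016 held 9 each. Of the 129 cells in the top 25% by S score, 73 were also in the top 25% by M score, so 43.4% (95% Wilson interval 35.2 to 52) lay outside G2/M. This share ran from 27.3% in B16PD1002 (13.2 to 48.2) to 50% in B16008 (30.7 to 69.3), and the intervals of all 6 tumors overlapped. Intervals here cover counting error only. The cutoff on the S score was lowest in R499015, at 4.81, and highest in B16PD1000, at 5.49. Cells lay close to it on both sides: in R499015 the cells just inside and just outside had S scores of 4.81 and 4.80, and in B16PD1002 they had 5.36 and 5.35. The class is a range that the rule cut from the S and M scores, and whether it forms a separate cluster was not tested. Over the 507 retained cells the S and M scores had a Pearson r of 0.53, and over the 56 S phase cells of -0.074. These correlations share the library and its depth, and the S score itself had an r of 0.34 with the number of genes detected. Among the 95 cells that were removed, 9 (9.47%) met both cutoffs of their tumor.

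**Figure D1:**
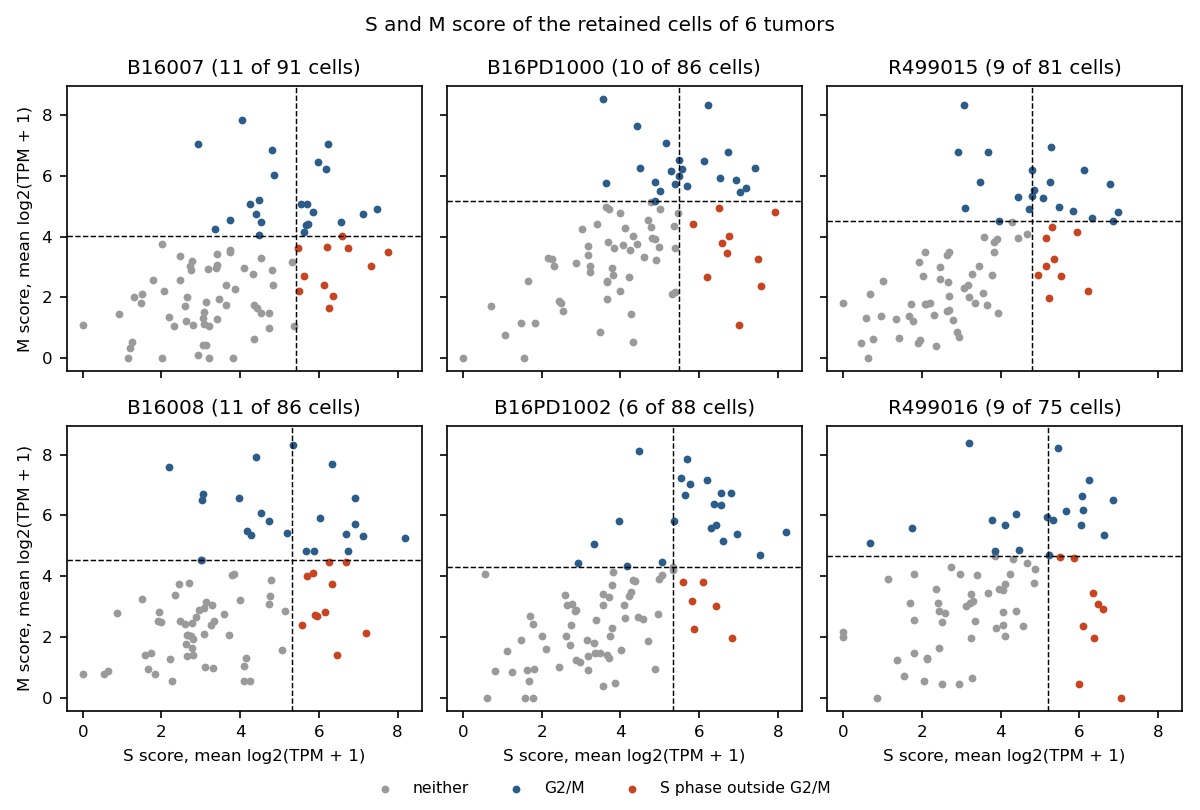
S score (x axis) and M score (y axis), both as mean log2(TPM + 1), of the retained cells of each of the 6 tumors, with dashed lines at the top 25% of each score in that tumor. The S phase cells outside G2/M (red, 6 to 11 per tumor) fill the lower right corner of each panel. Their distance from the neither cells (grey) differed by tumor. The lowest S phase cell and the highest neither cell by S score were at 5.48 and 5.37 in B16007 and at 5.52 and 4.87 in R499016. G2/M cells (blue) lie above the dashed line of the M score.

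The genes that chose the cells are given first, as a description. Rrm2 and Rrm1, the subunits of ribonucleotide reductase, which makes deoxynucleotides, averaged 7.82 ± 0.96 and 7.41 ± 0.60 log2(TPM + 1) in the S phase cells (mean ± SD of 6 tumor means), and Pcna, the sliding clamp, averaged 7.79 ± 0.61. In the neither cells of the same tumors the means were 4.34, 4.67 and 5.36. Among the helicase genes, Mcm6 averaged 7.18 ± 0.59 and Mcm5 5.37 ± 1.21 in the S phase cells, against 3.83 and 1.67 in the neither cells. Tyms, which makes thymidylate, varied most between tumors: its level in the S phase cells was 2.93 in B16008, 3.86 in R499015, 5.34 in B16PD1002, 6.07 in B16007, 7.10 in R499016 and 8.69 in B16PD1000. It was at TPM above 0 in 41 of the 56 cells, the second lowest number among the 10 genes after Gins2, a subunit of the GINS complex, with 36. Rrm1 was detected in all 56.

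The median M score was 3.06 in the S phase cells, 2.39 in the neither cells and 5.77 in the G2/M cells. The M score genes did not stand at the same level in the S phase cells. Cdk1, the kinase that drives mitotic entry, averaged 6.35 ± 1.18, and Top2a, the topoisomerase that untangles copied DNA, averaged 4.38 ± 0.57. Both lay between the neither cells (3.80 and 2.15) and the G2/M cells (7.71 and 5.42). Cdc20, which activates the anaphase-promoting complex, averaged 0.44 and was detected in 4 of the 56 cells, against 86 of 129 G2/M cells. Ube2c, a ubiquitin-conjugating enzyme of the same step, averaged 2.85 in the S phase cells and 3.45 in the neither cells. Mki67, the common marker of proliferation, was detected in 19 of 56 S phase cells (33.9%, 22.9 to 47), 90 of 129 G2/M cells (69.8%, 61.4 to 77) and 77 of 322 neither cells (23.9%, 19.6 to 28.9). The S phase cells thus often had no Mki67 transcript in these libraries. Mki67 is a gene of the M score, and cells at the top of that score were left out of the S phase cells. Its low share there therefore follows in part from how the cells were chosen, and does not describe all cells with a high replication score.

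Replication markers that the scores did not use were checked next. Of the 12 held-out markers (among them Mcm3, Mcm7, Cdc6, Cdc45, Ccne2, Slbp and Hells), an S phase cell had a median of 7 at TPM above 0, with a range of 1 to 12. The median was 6 in the G2/M cells and 3 in the neither cells. The lowest tumor mean was 4.78 markers, in R499016, and the highest was 8.1, in B16PD1000. Each of the 56 cells had at least 1 of them.

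The cells were melanoma cells by lineage. All 15 melanocyte lineage genes were detected, and Tyrp1, Dct and Mlana, which make or organize pigment, averaged 11.94, 11.94 and 11.70 log2(TPM + 1). The mean over the 15 genes was 7.32 ± 0.24 in the S phase cells and 7.23 ± 0.32 in matched neither cells, a difference of 0.09 ± 0.32 (SD, n = 6 tumors; two-sided exact sign-flip permutation test, p = 0.531, smallest possible p 0.031). Of 7 immune markers, 4 were detected, in 6 of the 56 cells, and 3 were at 0. The most frequent was Fcer1g, in 4 cells (7.14%), against 6.98% of the G2/M cells, and the summed TPM of the 7 genes, a mean per cell, ran from 0 to 48.5 over the tumors, against 2.88 to 20 in the neither cells and 5.19 to 873 in the G2/M cells. Of 6 fibroblast markers, 2 were detected, in 2 cells, and their summed TPM ran from 0 to 17.3 over the tumors, against 0 to 0.685 in the neither cells and 0 to 3.39 in the G2/M cells. The 4 endothelial markers and the 4 keratinocyte markers were at 0 in every S phase cell. The mitochondrial share of TPM averaged 3.07 ± 0.67% in the S phase cells and 3.42 ± 0.43% in matched neither cells, and was higher in 2 of 6 tumors (difference -0.34 percentage points, exact sign-flip permutation test, p = 0.188). With the top 30% by each score the difference was -0.48 and passed (exact p = 0.031), and without B16PD1000 it was -0.20.

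To ask what else went with the replication score, the S phase cells of each tumor were set against neither cells of the same tumor, each S phase cell beside the 3 neither cells nearest to it in number of genes detected. The 6 paired differences of 11244 genes outside the scores were fitted with limma. Since the classes were cut from expression in the same cells, these p-values measure whether a difference was alike in 6 tumors, and not whether a class exists. At an adjusted p under 0.05, 3 genes were higher in the S phase cells (0.0267% of the genes tested) and 0 were lower. At an unadjusted p under 0.05, 569 genes were higher (5.06%) and 419 were lower (3.73%). Chaf1b and Fignl1 were among the 3.

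Chaf1b encodes the middle subunit of chromatin assembly factor 1, which brings histones H3 and H4 to newly copied DNA behind the Pcna clamp (chr16:93883901-93906115 on GRCm38, protein coding). Its level in the S phase cells was 6.17 in B16007, 4.61 in B16008, 6.38 in B16PD1000, 4.25 in B16PD1002, 5.47 in R499015 and 4.50 in R499016. In the matched neither cells it was between 1.5, in R499016, and 3.29, in B16PD1000, so the 2 sets of tumor means did not overlap. The difference was 3.27 ± 0.35 on the log2(TPM + 1) scale (SE, limma adjusted p = 0.0309, higher in 6 of 6 tumors). It was detected in 80.4% of the S phase cells and 39.4% of the neither cells.

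Fignl1, an ATPase of recombination repair (chr11:11787431-11808962), ranged in the S phase cells from 3.32 in B16007 to 4.34 in R499016, and from 0.60 to 1.41 in the neither cells. Its difference was 2.88 ± 0.31 (adjusted p = 0.0309, limma). The next 2 genes by p-value were Tcf19, a nuclear protein expressed at the G1 to S transition, with a difference of 2.32 ± 0.28 (adjusted p = 0.0534, limma), and the helicase subunit Mcm3, with 3.96 ± 0.52 (adjusted p = 0.0704, limma). Both were higher in 6 of 6 tumors and did not pass in this fit. With rarely detected genes left out, a stricter filter described below, both passed (limma adjusted p = 0.00133 for Tcf19 and 4.3e-04 for Mcm3). Under that filter they also passed whichever tumor was left out.

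The windows around the start sites of these genes are shown because E2F factors are the textbook regulators of the replication genes and members of the set differed together. The windows, 250 bases before to 50 after the start, are RefSeq sequences on GRCm38.p6. They are written 5′ to 3′ on the strand of the gene, with matches to 4 E2F-type letter strings in capitals, on either strand and with overlapping matches joined. The first string is TTCCCGC. The second string is TTGGCGC. The third string is TTCGCGC. The fourth string is TTGCCGC. They lie at chr16:93883651-93883950, plus strand for Chaf1b, chr11:11808913-11809212, minus strand for Fignl1, chr17:35516775-35517074, minus strand for Tcf19 and chr1:20820263-20820562, minus strand for Mcm3.
Chaf1b: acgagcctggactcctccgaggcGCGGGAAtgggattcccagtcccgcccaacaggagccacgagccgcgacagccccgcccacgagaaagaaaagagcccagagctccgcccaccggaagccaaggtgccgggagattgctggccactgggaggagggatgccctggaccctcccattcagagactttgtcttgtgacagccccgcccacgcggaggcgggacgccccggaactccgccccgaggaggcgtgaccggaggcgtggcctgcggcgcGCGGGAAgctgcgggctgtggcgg
Fignl1: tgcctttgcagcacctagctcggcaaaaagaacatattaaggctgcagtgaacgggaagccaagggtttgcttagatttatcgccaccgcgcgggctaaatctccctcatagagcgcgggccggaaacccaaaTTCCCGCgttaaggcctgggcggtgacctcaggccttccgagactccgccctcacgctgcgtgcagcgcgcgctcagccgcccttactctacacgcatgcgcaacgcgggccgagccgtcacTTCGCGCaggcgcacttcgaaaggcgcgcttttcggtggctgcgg
Tcf19: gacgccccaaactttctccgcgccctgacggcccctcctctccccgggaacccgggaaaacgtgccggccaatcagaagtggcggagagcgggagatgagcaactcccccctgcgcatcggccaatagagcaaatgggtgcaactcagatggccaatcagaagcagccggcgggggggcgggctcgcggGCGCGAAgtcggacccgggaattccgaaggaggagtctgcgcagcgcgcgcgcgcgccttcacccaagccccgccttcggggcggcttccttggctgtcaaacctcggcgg
Mcm3: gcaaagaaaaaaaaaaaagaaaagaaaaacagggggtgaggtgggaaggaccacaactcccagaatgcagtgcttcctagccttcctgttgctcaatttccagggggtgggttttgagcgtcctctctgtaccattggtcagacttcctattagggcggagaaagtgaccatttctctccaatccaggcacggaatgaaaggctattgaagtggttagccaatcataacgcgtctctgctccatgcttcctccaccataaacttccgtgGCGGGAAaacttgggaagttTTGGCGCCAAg

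Chaf1b, Fignl1 and Mcm3 held 2 such stretches each and Tcf19 held 1. Of all 32851 windows, 9.57% held at least 1 match, and of the 8695 tested genes with a window, 20.2% did. Among the gene lists of the replication machinery, the shares were 11 of 18 matched MCM helicase and loader genes, 16 of 23 polymerase, clamp loader and ligase genes, 8 of 19 nucleotide synthesis genes, 10 of 20 chromatin assembly genes and 12 of 18 fork checkpoint and repair genes. Of the 9 matched held-out markers 6 had a match, and of 36 matched G2/M genes outside the score 6 did. Lists with smaller or negative median differences, described below, held matches too. They stood in 5 of 8 cohesin genes, 9 of 19 E2F, cyclin and kinase genes and 5 of 13 immediate early genes. The shares were 4 of 12 p53 target genes, 3 of 11 MHC class I presentation genes and 5 of 19 hypoxia and glycolysis genes. For melanocyte lineage and interferon-stimulated genes they were 2 of 9 and 2 of 19. These are counts of letters in a window and not binding sites.

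The number of genes that passed depended on which rarely detected genes were in the fit. With genes in at least 10% of retained cells (8119 genes), 85 genes rose in the S phase cells (1.05% of those tested) and 7 fell (0.0862%). The filter raised the degrees of freedom that limma lends each gene from 3.92 to 18. Of the 85, 42 were in the replication, nucleotide, chromatin or repair lists, 39 were in no list, and 73 were higher in 6 of 6 tumors. With the first filter, leaving out R499016 left 4 genes higher and leaving out any 1 of the other 5 tumors left 0. With the stricter filter, leaving out each tumor in turn left between 38 (without B16008) and 77 (without R499016) genes higher, and 29 of the 85 passed in all 6 of these fits, Chaf1b and Fignl1 among them. The lists below give both the counts at an unadjusted p under 0.05 of the first fit and those that passed under the stricter filter.

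Genes that license and start replication were higher as a group. Of 21 MCM helicase and loader genes tested, 20 had a positive difference, 14 were higher at an unadjusted p under 0.05 (background 5.06%), 10 were higher in 6 of 6 tumors (background 2.63%), and the median difference was 1.08 against 0.000023 over all genes tested. With rarely detected genes left out, 10 of 20 rose. The helicase subunits had the largest levels: Mcm3 was at 6.86, 6.17, 6.88, 7.22, 5.66 and 3.80 in B16007, B16008, B16PD1000, B16PD1002, R499015 and R499016, and at 1.67 to 2.52 in the matched neither cells. All tumors but R499016 stood at least 3 units above their neither cells. Mcm7 was at 4.71, in R499016, to 6.38, in B16PD1000, with a difference of 3.36 ± 0.45, and rose under the stricter filter (limma adjusted p = 6.5e-04).

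The loading factors differed too. Cdt1, which brings the helicase to origins and is destroyed once S phase begins, was at 4.32, 6.28, 4.14, 5.96, 3.12 and 3.20 in the tumors in the same order, against 0.63 to 2.42 in the neither cells. Its difference was 3.04 ± 0.45. Cdc6, the second loading factor, was at 2.0 to 2.93 against 0.41 to 0.88, a difference of 1.92 ± 0.26. Orc6, of the origin recognition complex, had a difference of 3.40 ± 0.62 that was positive in 5 of 6 tumors, and in R499016 both means were 3.82. Gmnn, the inhibitor of Cdt1, varied widely, from 1.27 in R499016 and 1.48 in B16008 to 4.27 in R499015. Its difference was 1.91 ± 0.49, higher in 6 of 6 tumors. Cdc45, the helicase activator, was at 1.77 in R499016 and 3.55 to 5.4 in the other 5 tumors, with a difference of 2.62 ± 0.38. All of Cdt1, Cdc6, Orc6, Gmnn and Cdc45 rose under the stricter filter.

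The copying machinery followed. All 28 polymerase, clamp loader and ligase genes tested had a positive difference, 18 were higher at an unadjusted p under 0.05, 13 were higher in 6 of 6 tumors, and the median was 1.26. The stricter filter gave 12 of 25 that rose. Rpa2, of the complex that coats single-stranded DNA, was at 4.20, 4.28, 6.02, 5.70, 4.09 and 1.5 in the tumors in the same order, against 0.069 to 2.0 in the neither cells. Its difference was 3.56 ± 0.53, and R499016 again stood lowest. The most abundant members were Rfc2, of the clamp loader, at 7.19, Tipin, of the fork protection complex, at 6.76, and Pole4, of polymerase epsilon, at 6.36. Their differences were 2.10, 2.64 and 1.02. Fen1, the nuclease that trims lagging strand fragments, had a difference of 1.43 ± 0.31.

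Nucleotide synthesis genes had a median of 1.35, with 21 of 21 positive, 16 higher at an unadjusted p under 0.05 and 10 higher in 6 of 6 tumors. Of the 20 members left by the stricter filter, 5 rose. Tk1, the thymidine salvage kinase, was at 6.81, 6.74, 6.94, 6.36, 4.64 and 2.88, against 0.98 to 2.86 in the neither cells, a difference of 3.53 ± 0.50. Both R499 tumors lay below the other 4. The most abundant members were less different: Nme1, which balances nucleoside triphosphates, averaged 8.77 against 8.37, and Paics, of purine synthesis, 7.82 against 6.32.

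Of 23 chromatin assembly and maintenance genes, 21 were positive, 17 were higher at an unadjusted p under 0.05, 13 were higher in 6 of 6 tumors, and the median was 1.02. Of 22 under the stricter filter, 8 rose. Besides Chaf1b, Nasp, a carrier of histones, had a difference of 3.06 ± 0.50, and Hells, a remodeler that helps to maintain DNA methylation, had 3.03 ± 0.55 with levels from 2.02 in R499016 to 6.77 in B16PD1002. H2afz, a replacement histone, was among the most abundant genes of the list, at 10.94 against 9.94, and rose by 1.0 under the stricter filter (limma adjusted p = 0.0245). Hmgb1 and Hmgn2, abundant chromatin proteins, averaged 9.69 against 8.71 and 8.80 against 7.78. Hmgb1 has 10 annotated genes named as its pseudogenes, so its reads may be divided among copies and its value is uncertain. Slbp, which binds histone messenger RNA, had a difference of 1.32 ± 0.55, positive in 5 of 6 tumors, and did not pass (adjusted p = 0.554, limma), and without B16PD1002 it was 0.82.

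Fork checkpoint and repair genes were mostly low in level. Of 24 tested, 21 were positive, 20 were higher at an unadjusted p under 0.05, and 8 were higher in 6 of 6 tumors, with a median of 0.87. Under the stricter filter 7 of 21 rose, among them Chek1, the checkpoint kinase, at 2.65 (adjusted p = 0.00111, limma) and the nuclease Exo1 at 2.20. Rad18, a ubiquitin ligase that acts on Pcna at stalled forks, averaged 4.05 against 1.91. Clspn, which passes the signal from Atr to Chek1, was at 2.51 in B16007 and 0.39 in R499015, and its difference of 1.07 ± 0.32 did not pass (adjusted p = 0.423, limma). Brca1, the recombination gene, averaged 3.47 against 3.26, a difference of 0.21 (adjusted p = 0.929, limma).

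**Figure D2:**
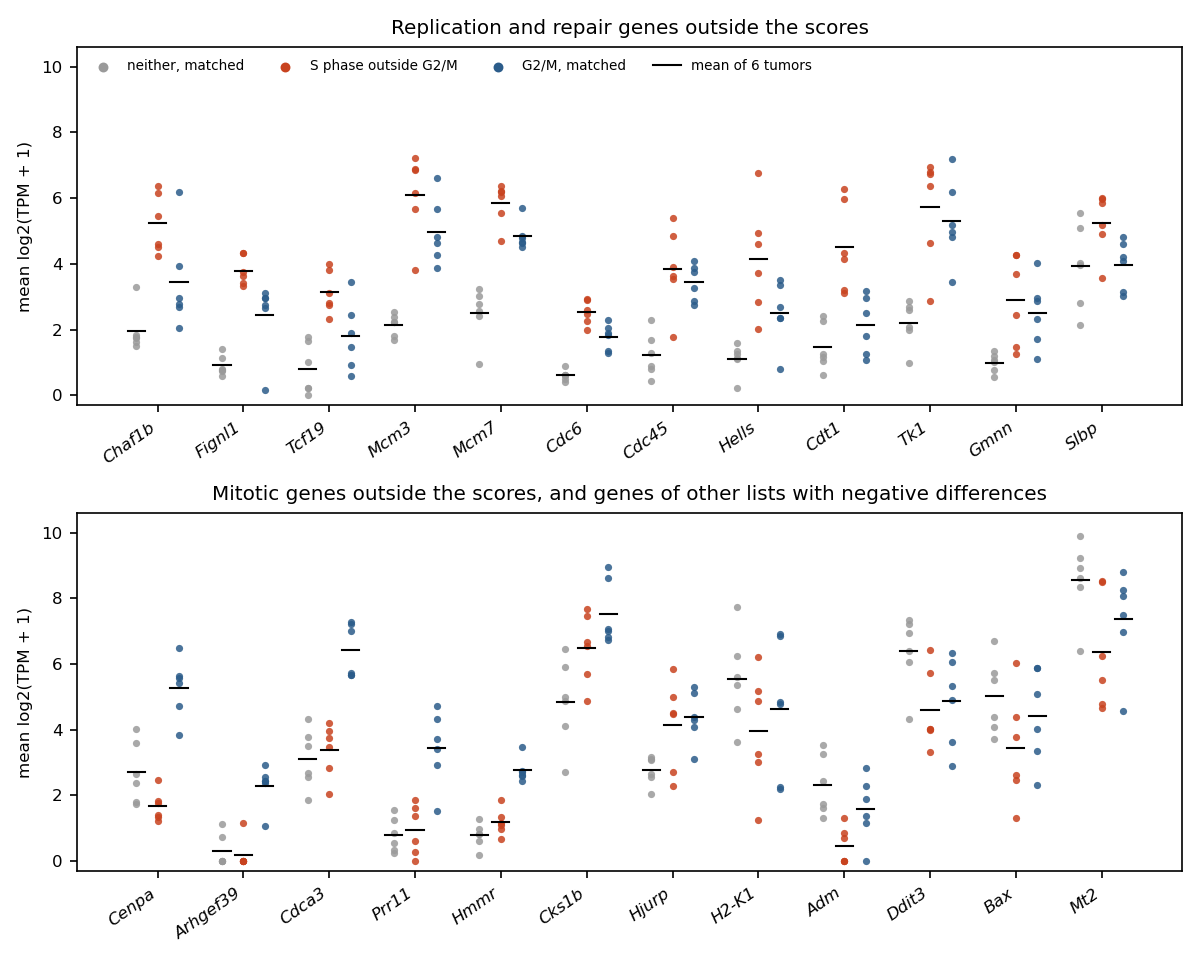
Level (mean log2(TPM + 1)) of 24 genes outside the scores in the neither cells matched on genes detected (grey), the S phase cells outside G2/M (red) and the matched G2/M cells (blue), with 1 point per tumor and a bar at the mean of the 6 tumors. Chaf1b and Fignl1 show S phase points that do not overlap the grey ones, and Cenpa shows S phase points of 1.23 to 2.47 under G2/M points of 3.83 to 6.5.

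The list of the cyclins and of the E2F factors themselves had a smaller median. Of 26 E2F, cyclin and kinase genes, 18 were positive, 10 were higher at an unadjusted p under 0.05 and 1 was higher in 6 of 6 tumors, with a median of 0.31. 1 member of 22 rose under the stricter filter, Ccne2, 1 of the 2 cyclin E genes, whose level was 2.31, 1.23, 3.60, 2.37, 0.00 and 1.32 in the tumors in order, against at most 0.70 in the neither cells. R499015 was the tumor at 0. E2f1, the first E2F gene, had a difference of 0.051 ± 0.17 (adjusted p = 0.945, limma). Ccna2, the cyclin of late S phase and G2, had a difference of 1.48 ± 0.49 from the neither cells and -1.75 ± 0.75 from the G2/M cells, and neither passed. The abundant kinases Cdk4 and Cdk2 averaged 9.04 and 8.67 against 8.49 and 7.99, and the cyclin Ccnd2 averaged 6.36 in both classes. Cell by cell, a cyclin E gene without Ccna2 was detected in 6 of 56 S phase cells (10.7%, 5 to 21.5), both in 17 (30.4%), Ccna2 without cyclin E in 16 (28.6%), and none of the 3 in 17 (30.4%, 19.9 to 43.3). In the neither cells none of the 3 was detected in 54.3%, and in the G2/M cells in 12.4%, at a higher number of genes detected.

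Part of the mitotic program was present as well. Of 42 G2/M genes outside the score, 34 had a positive difference from the neither cells, 11 were higher at an unadjusted p under 0.05 and 9 in 6 of 6 tumors, with a median of 0.43. Of these, Aurkb, the chromosomal passenger kinase, rose by 2.31 and Ttk, the spindle checkpoint kinase, by 1.34 under the stricter filter. Aurkb was at 2.02 to 4.64 in the S phase cells and 0.61 to 2.75 in the neither cells. Cks1b, a subunit of cyclin-dependent kinases, and Smc4, of condensin, were also positive, by 1.64 and 1.80, and did not pass under either filter. Cenpa and Plk1 stood at 1.68 and 1.25 in the S phase cells and 2.70 and 0.94 in the neither cells. Of the 12 cohesin genes, 10 were positive, 3 were higher at an unadjusted p under 0.05, and the median was 0.36. The most abundant of them were Stag2, Smc3 and Rad21, at 3.51, 3.48 and 3.38 against 3.29, 2.56 and 2.78, and Cdca5, which stabilizes cohesin on copied DNA, rose by 1.4 under the stricter filter.

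Genes of other programs lay level or lower. All 19 hypoxia and glycolysis genes tested had a negative difference, 4 were lower at an unadjusted p under 0.05 (background 3.73%) and 4 were lower in 6 of 6 tumors (background 1.78%), with a median of -0.42. Under the stricter filter 1 of 17 fell, Adm, the adrenomedullin gene, which oxygen shortage induces. It was at 0.70, 0.86, 0.00, 0.00, 1.30 and 0.00 in the tumors in order, against 3.54, 1.74, 1.63, 2.43, 3.26 and 1.32 in the neither cells, a difference of -1.84 ± 0.35. No S phase mean reached the neither mean of its own tumor. The other 4 genes with the smallest p on the lower side were Fam114a2, Gbe1, which makes glycogen branches, Ddit3, a factor of the stress response, and Vps51, of vesicle tethering. Their differences of -1.98, -1.76, -1.8 and -1.01 were negative in 6 of 6 tumors, and with rarely detected genes left out Fam114a2 and Ddit3 fell. Ndrg1, another gene induced by hypoxia, had a difference of -1.88 ± 0.55 and did not pass (adjusted p = 0.402, limma). The glycolytic enzymes Gapdh, Ldha and Eno1, among the most abundant transcripts, were at 13.47, 12.14 and 11.93 against 13.69, 12.22 and 11.93. Of 13 p53 target genes tested, 11 were negative, 3 were lower at an unadjusted p under 0.05, and the median was -0.46. None of 12 fell under the stricter filter. Bax, which opens the outer mitochondrial membrane, had a difference of -1.59 ± 0.47 (adjusted p = 0.407, limma), Cdkn1a, the cell cycle inhibitor p21, -0.77, and Ccng1 -0.78. Of 15 immediate early genes, 12 were negative with a median of -0.35, and Fos, Klf6 and Ier3 averaged 5.31, 4.66 and 3.69 against 6.18, 5.49 and 5.25.

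Genes of antigen presentation and of the interferon response did not pass in either direction. Of 24 interferon-stimulated genes, 16 were negative and 3 were lower at an unadjusted p under 0.05, with a median of -0.23. Ifi27 averaged 7.46 against 8.36, Ifitm3 7.51 against 7.53 and Lgals3bp 5.43 against 4.49. Of 13 MHC class I presentation genes, 8 were negative, with a median of -0.039, and B2m, Canx and Calr averaged 10.31, 8.23 and 8.28 against 10.64, 8.37 and 7.95. H2-K1, a class I heavy chain, was at 6.20, 1.24, 3.02, 3.27, 4.88 and 5.19 in the S phase cells of the tumors in order and 7.73, 3.64, 5.61, 4.62, 6.25 and 5.37 in the neither cells. It was lower in 6 of 6 tumors, by 0.18 to 2.60, and did not pass (difference -1.57 ± 0.39, limma adjusted p = 0.301). It was detected in 31 of 56 S phase cells (55.4%, 42.4 to 67.6) and 328 of 451 other retained cells (72.7%, 68.4 to 76.6). These shares, like those of Cd274 below, pool cells over tumors and were not matched on genes detected. The other cells include the G2/M cells, with a median of 4152 genes detected against 3269 in the S phase cells. H2-D1, the other heavy chain, had a difference of -0.79 (adjusted p = 0.594, limma). The 2 heavy chains are alike in sequence, so their reads may be divided between them and their values are uncertain. Cd274, which encodes the ligand of PD1, was detected in 7 of 56 S phase cells (12.5%) and 78 of 451 others (17.3%), with overlapping intervals. Mitf and Tyr, the master regulator and the first enzyme of pigment cells, had differences of 0.24 and -0.092 (adjusted p = 0.865 and 0.95, limma). Mitf was negative with 1 nearest cell or with cells of more than 2000 genes, and Tyr was positive without B16008, B16PD1000 or B16PD1002.

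**Figure D3:**
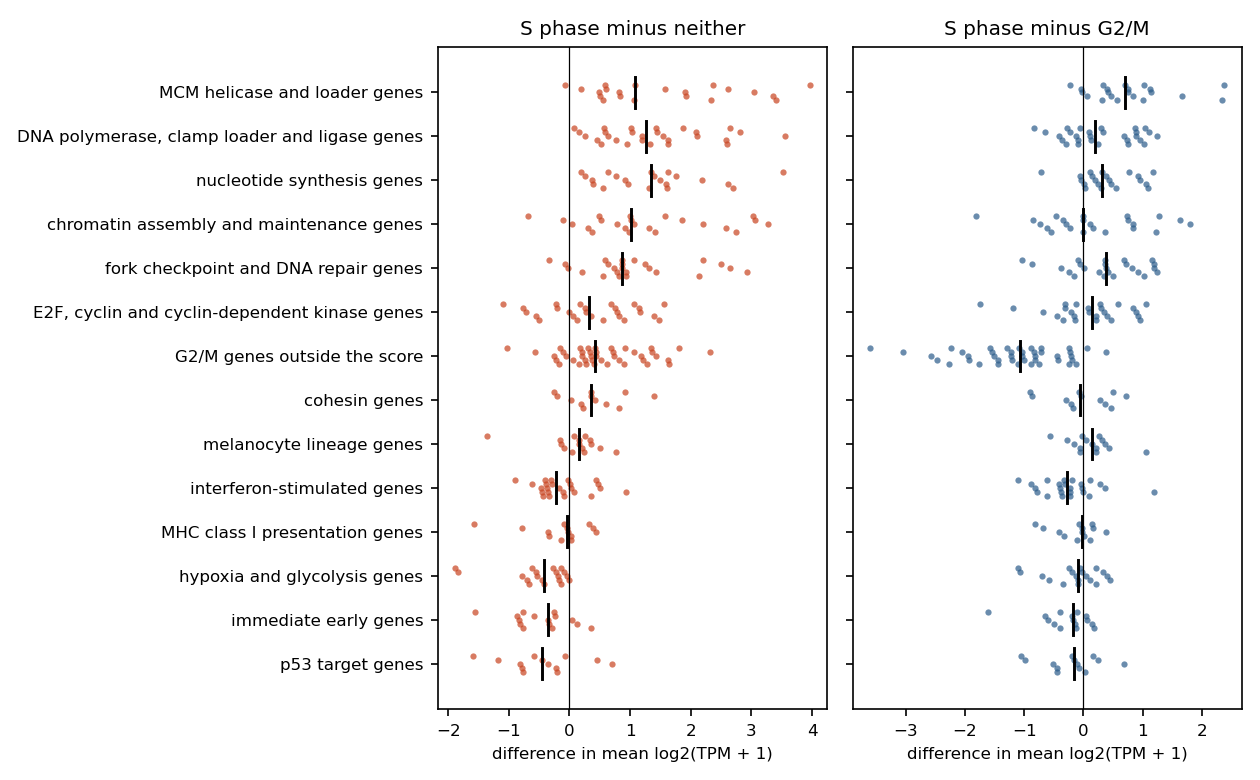
Difference in mean log2(TPM + 1) of the S phase cells from matched neither cells (left) and from matched G2/M cells (right) for each tested member of 14 gene lists, with 1 point per gene (the mean of 6 tumors) and a bar at the median of the list. Medians on the left run from 1.35 for nucleotide synthesis genes to -0.46 for p53 target genes, and on the right the G2/M genes outside the score stand lowest, at -1.06.

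Against the G2/M cells, the most similar class, the question was which genes tell the phases apart. G2/M cells were matched on genes detected in the same way, and they include the 73 cells in the top 25% by both scores. By limma, 0 of 11244 genes passed in either direction, with 321 higher (2.85%) and 342 lower (3.04%) at an unadjusted p under 0.05. With genes in at least 10% of cells, 0 rose and 5 fell (0.0616%). The G2/M cells were chosen on mitotic genes, and genes that go with those lay lowest: of the 42 G2/M genes outside the score, 40 were negative, 25 were lower at an unadjusted p under 0.05 and 17 were lower in 6 of 6 tumors (background 1.57%), with a median of -1.06 against 0.00 over all genes tested.

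The gene with the smallest p was Cenpa, the histone H3 variant that marks centromeres (chr5:30666777-30674830). It was at 1.84, 1.34, 1.42, 1.76, 2.47 and 1.23 in the S phase cells of B16007, B16008, B16PD1000, B16PD1002, R499015 and R499016. In the matched G2/M cells it was at 5.57, 3.83, 5.65, 6.5, 5.42 and 4.71. The groups did not overlap, and the difference of -3.60 ± 0.39 had an adjusted p of 0.177 (limma). Its window at chr5:30666636-30666935, plus strand is shown with the letters TTTGAA and TTTAAA, the core of the cell cycle homology region found at mitotic genes, in capitals (either strand).
Cenpa: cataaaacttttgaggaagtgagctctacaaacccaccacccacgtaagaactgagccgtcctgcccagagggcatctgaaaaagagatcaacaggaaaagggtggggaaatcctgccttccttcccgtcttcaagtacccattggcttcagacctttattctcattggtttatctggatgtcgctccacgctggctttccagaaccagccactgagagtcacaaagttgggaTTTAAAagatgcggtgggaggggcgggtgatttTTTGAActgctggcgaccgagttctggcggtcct

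Such letters stood in 28 of 36 matched G2/M genes outside the score, in 10 of 20 chromatin assembly genes, 5 of 18 MCM helicase and loader genes and 2 of 23 polymerase, clamp loader and ligase genes, in 22% of the tested genes with a window, and in 27.6% of all windows. Cdca3, a trigger of mitotic entry, was at 2.06 to 4.22 against 5.66 to 7.28, with a difference of -3.04 ± 0.46. Prr11 and Hmmr, a spindle protein, had differences of -2.49 and -1.58, and Arhgef39, a guanine nucleotide exchange factor, was at 0 in the S phase cells of 5 tumors and at 1.06 to 2.92 in G2/M cells. Among abundant members, Tubb4b, a tubulin with 2 annotated pseudogenes, averaged 6.29 against 8.23, Cks1b 6.49 against 7.53, and Hjurp, the chaperone of Cenpa, 4.13 against 4.38.

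In the other direction, genes that license origins mostly had positive differences. Of 21 MCM helicase and loader genes, 18 had a higher mean than in G2/M cells, 6 at an unadjusted p under 0.05, with a median of 0.71. Orc1, the largest subunit of the origin recognition complex, was at 1.77, 2.28, 1.99, 2.49, 1.03 and 0.58 against 0.68, 0.60, 1.48, 0.52, 0.00 and 0.00 in G2/M cells of the same tumors, higher in 6 of 6. Its difference was 1.15 ± 0.24 (adjusted p = 0.812, limma). Cdt1 was higher in 6 of 6 tumors, by 2.38 ± 0.58, and Chaf1b in 5 of 6, by 1.80 ± 0.71. The polymerase, clamp loader and ligase genes had 17 positive and 11 negative differences with a median of 0.19, and Fen1 differed by -0.065. The chromatin list had a median of -0.0051. Slbp was higher in 6 of 6 tumors, by 1.27 ± 0.38, and Cdk2 by 0.89 ± 0.25. The other genes with the smallest p on this side were Rims2, Kyat1, Med6 and Smarcd2, at 0.76, 1.39, 1.75 and 0.58, and Rims2 and Smarcd2 were detected in 17.9% and 12.5% of the S phase cells.

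The conditions were then compared within the S phase cells, on the 6 tumor means, with 22 cells in B16, 16 in B16PD1 and 18 in R499. No gene passed in any of the 3 contrasts by limma. At an unadjusted p under 0.05, B16PD1 minus B16 had 186 genes higher (1.65%) and 377 lower (3.35%), R499 minus B16 had 121 higher (1.08%) and 522 lower (4.64%), and R499 minus B16PD1 had 188 higher (1.67%) and 405 lower (3.6%). The genes with the smallest p were rarely detected ones: Arvcf and Mapk12 were seen in 2 of the 56 cells each, Lrrk2 in 4, E2f2 in 2, Dnaaf5 in 5 and Timeless, of the fork protection complex, in 7. Timeless was at 2.30 and 2.39 for B16PD1, 0.00 and 0.44 for B16 and 0.00 for both R499 tumors (R499 minus B16PD1, adjusted p = 0.376, limma). With 6 to 11 cells per tumor such a gene rests on few cells.

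Both R499 tumors had the lowest levels of many replication genes in the S phase cells, and of several lists in the other classes too. The mean of the 12 held-out markers in the S phase cells was 3.87 and 3.30 for B16, 4.10 and 3.69 for B16PD1 and 2.96 and 2.29 for R499. In the matched neither cells of R499 it was 1.31 and 1.05, beside 1.06 to 1.67 for the other 4 tumors. The same order held for the MCM helicase and loader genes, where R499015 and R499016 stood at 2.74 and 2.36 and the other 4 tumors at 3.14 to 3.70, and for the polymerase, nucleotide, chromatin and fork lists. The cohesin genes had it too, at 1.51 and 1.82 against 2.18 to 2.65. So did the E2F, cyclin and kinase genes, at 1.91 and 2.27 against 2.45 to 2.91. This order was not particular to the S phase cells. In the matched G2/M cells the held-out markers were at 2.11 and 2.39 in R499015 and R499016 and at 2.44 to 2.99 in the other 4 tumors, the MCM genes at 2.03 and 2.17 against 2.28 to 2.97, the polymerase genes at 2.57 and 2.5 against 3.15 to 3.55, the nucleotide genes at 3.47 and 3.34 against 3.80 to 4.41, and the chromatin genes at 4.12 and 3.99 against 4.46 to 4.81. The fork genes did not follow the order in the G2/M cells, at 1.18 and 1.36 against 1.23 to 1.75. In the matched neither cells both R499 tumors were also lowest for the MCM genes, at 1.48 and 1.56 against 1.57 to 1.79, and for the nucleotide genes, at 2.62 and 2.59 against 2.79 to 3.30. The S score did not follow it: R499016 was at 6.26, between B16008 at 6.19 and B16007 at 6.36, and R499015 was lowest at 5.43. Of the 12 held-out markers 4 (Mcm3, Mcm7, Cdc45 and Hells) had both R499 means below the other 4 tumors, as did 7 of 21 MCM helicase and loader genes, 7 of 28 polymerase genes, 8 of 21 nucleotide genes, 5 of 23 chromatin genes and 5 of 24 fork genes, against 8% of the genes tested and 1 of 42 G2/M genes outside the score. The held-out markers are also members of the other lists. None of the genes of these 6 lists had both R499 means above the other 4 tumors, against 2.85% of the genes tested. With each cell's mean subtracted these counts were 4, 7, 3, 8, 5 and 3, against 6.03%, and 1 chromatin gene lay above, against 5.26%. In the matched neither cells they were 3, 3, 4, 6, 2 and 4, against 8.87%, and 1 polymerase, 1 nucleotide and 1 fork gene lay above, against 3.5%. In the S phase cells, 3 of 12 cohesin genes and 4 of 26 E2F, cyclin and kinase genes also had both R499 means below. Of the E2F, cyclin and kinase genes, 1 lay above.

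No single gene of these lists passed. Tk1 differed by -3.01 between R499 and B16 (adjusted p = 0.651, limma) and Mcm3 by -1.78 (adjusted p = 0.875, limma). The median over the 12 held-out markers was -1.06 for R499 minus B16 and -1.02 for R499 minus B16PD1, beside -0.15 and -0.064 over all genes tested. With cells centred the medians were -0.85 and -0.83, beside 0.055 and 0.12, so R499 stayed lower for these markers with cells centred. The G2/M list had medians of -0.021 and -0.037. For B16PD1 minus B16 the held-out median was 0.35 and the G2/M median -0.013. The contrasts share tumors, so these values are not independent. R499016 had the second lowest mean number of genes detected among its S phase cells, 2815, beside 2757 in B16008 and 4400 in B16007. A limma fit of single genes with genes detected as a covariate was among the alternatives. The part of detection in the order of the list means was not tested.

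**Figure D4:**
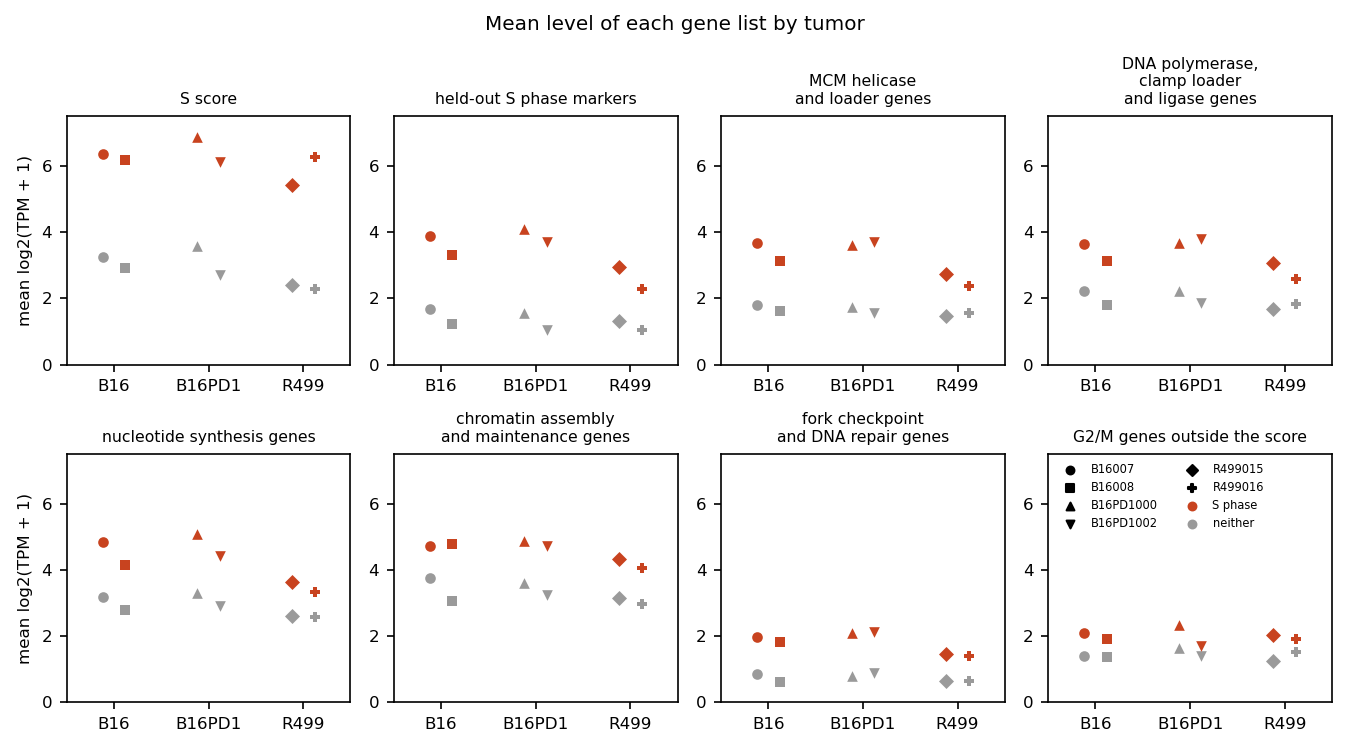
Mean log2(TPM + 1) over the genes of 8 lists (panels) in the S phase cells outside G2/M (red) and in matched neither cells (grey) of each tumor (symbols), by condition. The R499 symbols stand below the other red symbols for the held-out markers (2.96 and 2.29 against 3.30 to 4.10) and for the 5 replication lists, and not for the S score or the G2/M genes.

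The difference between S phase and neither cells was also compared between conditions, to ask whether treatment or the resistant line altered what goes with the replication score. No gene passed by limma in the 3 contrasts. At an unadjusted p under 0.05 there were 255 higher (2.27%) and 257 lower (2.29%) for B16PD1 minus B16, 213 (1.89%) and 251 (2.23%) for R499 minus B16, and 258 (2.29%) and 251 (2.23%) for R499 minus B16PD1. Pfdn5, a subunit of the prefoldin chaperone, had S phase minus neither differences of -1.86 (B16007), -1.09 (B16008), 3.18 (B16PD1000), 2.96 (B16PD1002), 0.40 (R499015) and 0.87 (R499016) (B16PD1 minus B16 4.55, adjusted p = 0.931, limma). Mt2, a metallothionein, had -0.082 and -0.87 for B16, -1.4 and -2.11 for B16PD1 and -4.45 and -4.26 for R499 (R499 minus B16 -3.88, adjusted p = 0.971, limma). The 3 conditions did not overlap for either gene, but both were picked for their small p among 11244 genes. The share of all genes without such overlap was not counted, so the separation carries no weight of its own. Etaa1os, Otos, Man2c1 and Gtpbp6, the others with the smallest p besides Timeless, were detected in 2 to 6 of the 56 cells.

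Kalrn, which encodes a guanine nucleotide exchange factor, was detected in S phase cells of R499 most often. It was found in 7 of 18 R499 S phase cells (38.9%, 20.3 to 61.4), 1 of 22 B16 S phase cells and 0 of 16 B16PD1 S phase cells, which allows a share of up to 18.8% there. Among the other R499 cells it was detected in 69 of 138 (50%, 41.8 to 58.2). Cd274 was detected in 3 of 22, 0 of 16 and 4 of 18 S phase cells of B16, B16PD1 and R499.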

How the data were processed

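The authors aligned reads with STAR in 2-pass mode and quantified them with RSEM at default settings, and deposited TPM (transcript abundance scaled to one total per cell, so reads per gene and depth are lost) for 25215 genes in 602 cells of 6 tumors. Their processing notes name the build mm10, and versions are not given in the sources used here. Column names give the condition and a tumor number. No column was left out.

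Cells were retained with more than 1000 genes detected and under 10% mitochondrial TPM, which left 507. The study's minimum of mapped reads was not applied, doublets were not called, and no chip well occurred under more than 1 cell. Members, gene lists and tests were chosen with earlier results of these data known. A value was the mean log2(TPM + 1) over a tumor's cells, with a pseudocount of 1, so the change of low genes is understated. Each S phase cell was matched with the 3 comparison cells of its tumor nearest in genes detected. For 11244 genes at TPM above 0 in more than 5 retained cells, without the 20 score genes, limma 3.58.1 in R 4.3.3 (eBayes with a trend on gene level, two-sided, Benjamini-Hochberg, threshold 0.05) was fitted to 6 differences or 6 means. The labels do not say that the 2 tumors of a condition came from separate cultures. The other tools were matplotlib 3.10.9, scipy 1.17.1, pandas 2.3.3, numpy 2.4.6 and Python 3.11.15, and the fit was tested on simulated data. Gene positions are from GENCODE on GRCm38.

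Genes were named by a rule: the score genes, the 5 smallest p of each sign against neither and against G2/M cells, because too few genes passed to take the largest differences, the 3 smallest p of each condition contrast, 3 members per list with the highest level, Cd274, H2-K1, H2-D1, Kalrn, Mitf and Tyr. Other genes were named after their values were seen, and some genes that the rule names are not reported here. Alternatives were other matching, pseudocounts of 0.1 and 10, other filters, top 20% and 30%, scores without the trend on genes detected, centred cells, limma without a trend, and each tumor left out. The conditions within S phase cells were also fitted with genes detected as a covariate. Leaving out tumors under the 10% filter was added after seeing the data.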

Additional observations from a re-analysis of the deposited data

Results flagged for a closer look

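In 4 results 1 tumor stood apart from the other 5 by Dixon's test (gap over range above the 95% critical value for 6 tumors, which chance gives in about 1 of 20 groups). The number of results screened is not given, so the 4 cannot be weighed against that share. The difference between S phase and neither cells was 1.29 in R499016 for Mcm3, a subunit of the helicase, with the other 5 tumors at 3.87 to 5.19 (gap over range 0.66). For Cdc45, the helicase activator, it was 0.97 in R499016 (0.74). Against G2/M cells the difference of Cdca3 was -5.16 in B16PD1002 (0.66) and that of Smarcd2 was 0.00 in B16PD1000, where both classes were at 0 (0.64).

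Tyr, the first enzyme of pigment synthesis, was lower in the S phase cells than in neither cells of both B16PD1 tumors (mean difference -0.82) and higher in both R499 tumors (0.66). The difference between these conditions, 1.48 for R499 minus B16PD1, did not pass (limma adjusted p = 0.915).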

How the results depend on the processing

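No paired analysis was possible because the cell columns carry tumor numbers and none of the replicate numbers of the labels, so no replicate number could serve as a block (the cell classes were compared within each tumor). The count of genes higher in S phase than in neither cells, 3, was 0 with 1 nearest cell, with all other cells as comparison, with a pseudocount of 0.1 and with no filter on genes, 5 with the top 30% by each score and with limma without a trend, 14 with 5 nearest cells, 19 with cells not matched, 26 with scores without the trend on genes detected, 72 with cells centred and 85 with genes in at least 10% of cells. With each tumor left out it was 0 or 4, and with the 10% filter as well it was 38 to 77. Genes lower were 0, and 4 with cells centred, 7 with the 10% filter, 0 with each tumor left out and 1 to 3 with both. Against G2/M cells, 6 genes were higher and 16 lower with cells centred, 2 lower with cells not matched and 5 lower with the 10% filter. Centring and the 10% filter change the values or the genes tested, and for the other settings the cause was not tested. Without a filter on genes, the conditions within S phase cells gave 2 higher and 13 lower (B16PD1 minus B16), 3 and 13 (R499 minus B16) and 2 higher (R499 minus B16PD1), and the S phase difference gave 1 and 2, and 1 and 1, for the first 2 contrasts. With each tumor left out, when a lone tumor is assumed to vary like the others, the conditions within S phase cells gave 0 to 89 higher and 0 to 455 lower, 0 to 41 and 0 to 448, and 0 to 41 and 0 to 86. Without B16008, 416 of 478 genes called in any of the 3 contrasts were at 0 in the S phase cells of the other 4 tumors besides the lone B16007. The mitochondrial share differed by -0.48 percentage points, lower in every tumor, with the top 30% by each score, which passed the threshold (exact p = 0.031). Of 1129 values of 55 named genes under the alternatives, 1120 kept their direction. The others were Mitf at -0.025 with 1 nearest cell and -0.012 with cells of more than 2000 genes, E2f2 (R499 minus B16PD1) at -0.072 with the top 20%, and Tyr, which ran from -0.33 to 0.078 with each tumor left out. Depth in reads is unknown and a tumor held 6 to 11 S phase cells, so a rarely detected gene rests on few cells.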

Other observations

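Beyond the lists, 39 of the 85 genes that rose in S phase against neither cells with genes in at least 10% of cells belonged to no list, and the genes named here were chosen after their values were seen. Pclaf, a partner of the Pcna clamp, rose by 3.09 ± 0.52 (SE, limma adjusted p = 0.00177) and Dtl, which directs the destruction of Cdt1 at Pcna, by 2.79 ± 0.44 (0.00119). Parts of the centromere and kinetochore were among them: Cenpm rose by 2.37, Spc25 by 2.06, Mis18a, which prepares centromeres for Cenpa, by 1.94, Cenph by 1.43, Cenpq by 1.38 and Nsl1 by 1.07. Condensin genes, which compact chromosomes, were Ncapg2 at 2.09, Ncaph at 1.92 and Smc2 at 1.9. Genes of microtubules were Tubg1 at 2.27, Stmn1 at 2.06, Tuba4a at 1.77, Haus4 at 1.73 and Tuba1b at 0.86. Ranbp1, of nuclear transport, rose by 2.66. How many genes of each of these kinds were tested was not counted. The levels of these genes in G2/M cells are not given here, so the rises are not shown to be particular to the S phase cells.

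The 7 genes that fell in that fit were Mt2 (-2.19), Hist1h2bc (-2.14), Fam114a2 (-1.98), Adm (-1.84), Ddit3 (-1.8), mt-Rnr1 (-1.11) and Bsdc1 (-1.02). Mt2, a metallothionein that binds zinc, was at 8.54, 5.53, 8.51, 6.24, 4.79 and 4.67 in the S phase cells of B16007, B16008, B16PD1000, B16PD1002, R499015 and R499016, and at 8.62, 6.39, 9.91, 8.35, 9.23 and 8.93 in matched neither cells. It was lower in 6 of 6 tumors. None of the 7 passed in every fit with a tumor left out.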
